A study of Mus musculus with 30 samples.

Results

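The passage of the enteric glial translatome from 3 h to 24 h after intestinal manipulation (IM) was followed by comparing all 4 *RiboTag* libraries labelled IM24h with all 4 labelled IM3h. Transcripts of each table were summed to genes by the gene symbol in their name and joined by symbol. These 8 libraries are part of a series of 30 labelled samples. Each holds mRNA bound to ribosomes of the *muscularis externa* (*ME*), the muscle layer with the myenteric plexus, taken from the whole small bowel of adult male mice. In the *RiboTag* system a Cre recombinase swaps the last exon of the ribosomal protein gene *Rpl22* for a copy with an HA tag, and an antibody against the tag then pulls down ribosomes with the mRNA they carry. All mice of this fraction, naïve ones included, carried the tagged *Rpl22* allele (Rpl22tm1.1Psam) and the tamoxifen-inducible transgene Tg(Sox10-icre/ERT2)388Wdr, which is driven by *Sox10*, a gene of enteric glia, and had received tamoxifen. Mice at IM3h and IM24h had undergone abdominal surgery with IM, the mouse model of post-operative ileus (POI), and 3 naïve *RiboTag* libraries served as the background. Total *ME* RNA was available from 3 libraries at IM3h and 4 at IM24h, but the labels give a *Gfap*-Cre line (Tg73.12Mvs) for the former and the *Sox10* line for the latter, so mouse line and time cannot be told apart in that fraction.

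Enteric glia surround the neurons of the gut wall and respond to injury with changes in shape, filaments and secreted factors that are known as gliosis. Immediate early genes are transcribed within minutes of a stimulus without new protein synthesis. They encode transcription factors such as FOS and EGR1 and a set of inhibitors that switch the same pathways off again. Replication and mitosis genes are raised in cycling cells, and the arrival of monocytes and neutrophils in the *ME* is a known feature of POI.

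Libraries at IM24h were thinner than those at IM3h. Without *AY036118*, a transcript that lies inside an rRNA gene, the totals were 5291294 to 7410141 estimated counts at IM3h and 1702478 to 4083376 at IM24h. *AY036118* took 2.02% to 10.3% of counts at IM3h, 22.2% to 59.2% at IM24h and 2.68% to 14.0% in naïve libraries, and the groups at IM3h and IM24h did not overlap (exact two-sided permutation test, p = 0.0286, the smallest value that 4 against 4 can give). Libraries 2 and 3 of IM24h stood apart, with 13560 and 11629 genes at 1 count or more, where libraries 1 and 4 of the group had 16746 and 16477 and the IM3h libraries 15829 to 19311. The difference in detected genes between the time points was not past the threshold (exact permutation test, p = 0.0857). The pull-down held enteric glial genes at both times. *Sox10*, a transcription factor of the glial lineage, was at 355 to 514 CPM (counts relative to the TMM-scaled library size) at IM3h and at 51.1 to 565 CPM at IM24h. Smooth muscle genes were present too, with a summed level of 6453 to 14305 CPM at IM3h and 8347 to 13677 at IM24h beside 6481 to 10280.3 and 1967 to 3987 for 21 genes of enteric glia.

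**Figure D1:**
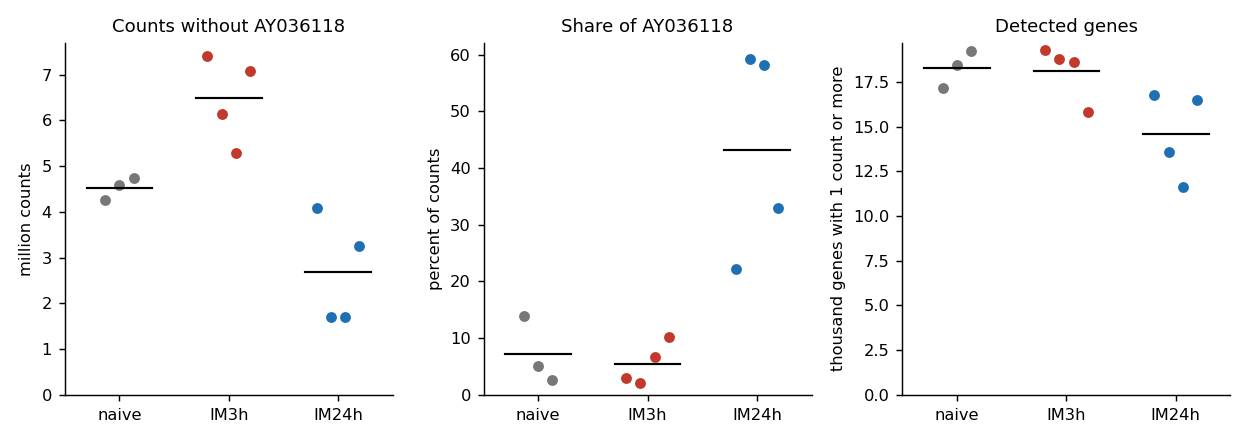
Counts per library without *AY036118* (left), share of *AY036118* (middle, percent of all counts) and genes with 1 count or more (right) in naïve, IM3h and IM24h *RiboTag* libraries. Points are libraries and lines are group means, and the IM24h points reach 59.2% for *AY036118* and go down to 11629 detected genes.

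Of 14169 genes tested, 261 differed (1.84%), of which 133 were higher (0.939%) and 128 lower (0.903%) at IM24h than at IM3h at an adjusted p under 0.05, where the p is that of edgeR's quasi-likelihood test with Benjamini-Hochberg adjustment. "Rose" and "fell" are used below for these genes only. At the threshold of the study, an unadjusted p under 0.05 with a change of more than 2-fold, 967 genes were higher (6.82%) and 1005 lower (7.09%). The 4 libraries of one time lay outside the range of the other for all 128 genes that fell and for 119 that rose. Over all genes, 10.4% had no overlap with the lower values at IM24h and 4.91% with the higher ones. The called genes were picked by the same values, so their lack of overlap is no separate support. Unnamed gene models and pseudogenes made up 48 of the 133 and 11 of the 128. Without libraries 2 and 3 of IM24h, 90 genes were higher (0.54%) and 207 lower (1.24%). Of the genes above, 61 and 88 were called again in that fit, and the direction was kept by all 133 and all 128. In bulk libraries, fewer cells of a type and less RNA per cell cannot be told apart.

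Of the pathway and marker lists, the immediate early transcription factors had the lowest median log2 fold change. Of 19 tested members of this list, 4 fell (0.903% of all genes did) and none rose. At the threshold of the study 15 were lower (7.09%), and 12 had no overlap between the times (10.4% of all genes in this direction). The median log2 fold change of the list was -2.17, beside -0.10 over all genes. *Fosb*, a subunit of the dimeric factor AP-1, was at 252, 242, 395 and 289.9 CPM in the 4 libraries at IM3h and at 6.61, 0, 0 and 13.2 CPM at IM24h. Naïve libraries held 0 to 1.52 CPM, so that both shallow IM24h libraries were back in the naïve range while the other two were not. The log2 fold change was -5.75 ± 0.90 (SE, adjusted p = 0.00761, n = 4 in each group in the edgeR fit). *Egr1*, a zinc finger factor, stood at 1144, 1629, 1813 and 1333 CPM at IM3h and at 110.3, 89.5, 166 and 51.7 CPM at IM24h. All 4 late libraries lay above the 11.2 to 32.3 CPM of naïve mice and far below the early ones, with a log2 fold change of -3.83 ± 0.42 (adjusted p = 0.000634 in edgeR). *Fos* itself went from 87.4 to 222 CPM down to 6.36 to 53.5 CPM (log2 fold change -2.67 ± 0.58, adjusted p = 0.0366 in edgeR). *Fosl2*, a further AP-1 subunit, fell from 212 to 328 CPM to 57.1 to 99.3 CPM, still above the naïve 35.6 to 44.0.

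*Nr4a1*, an orphan nuclear receptor, had no overlap between 90.9 to 244 CPM at IM3h and 0 to 31.8 CPM at IM24h, but its adjusted p was 0.0672 in edgeR. *Atf3*, a factor induced by many stresses, and *Jund*, an AP-1 subunit whose log2 fold change was 0.08, were the 2 members with a positive value. *Atf3* was at 77.6, 98.1, 105 and 147 CPM at IM3h and at 10.7, 148, 171 and 160.4 CPM at IM24h, where naïve libraries held 1.36 to 3.26. The late libraries 2, 3 and 4 were thus above the highest early one and library 1 was far below all of them, so that the log2 fold change of 0.19 ± 0.60 was not past the threshold (adjusted p = 0.92 in edgeR) and was negative without libraries 2 and 3 (-0.43, adjusted p = 0.851), without library 3 alone (-0.05), without library 4 alone (-0.03), by voom, and with totals, raw counts or 3 reference genes as the scale.

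Calls among genes that act back on these pathways were also falls. Of 23 tested feedback genes, 4 fell (0.903% of all genes did), none rose and 11 were lower at the threshold of the study (7.09%). The median log2 fold change was -1.76. *Nfkbia*, the inhibitor of NF-kB that NF-kB itself induces, was at 1883, 1950.2, 2176 and 3587 CPM at IM3h and at 427, 587, 818 and 1003 CPM at IM24h. The late libraries remained above the naïve 106 to 227 CPM (log2 fold change -1.76 ± 0.38, adjusted p = 0.037 in edgeR). *Zfp36*, which speeds the decay of cytokine mRNAs, fell from 61.9 to 184 CPM to 9.33 to 40.2 CPM. *Ier2*, an immediate early gene, fell from 26.5 to 71.6 CPM to 0 to 4.84 CPM. *Spry2*, an inhibitor of receptor tyrosine kinase signaling, fell from 140.4 to 565 CPM to 38.4 to 99 CPM. *Errfi1*, a feedback inhibitor of the EGF receptor outside this list, ranged from 58.5 to 124 CPM at IM3h and from 0.587 to 8.66 CPM at IM24h (log2 fold change -4.32 ± 0.63, adjusted p = 0.00515 in edgeR). *Spred2*, which restrains the RAS and ERK pathway, went from 72.7 to 122 CPM to 5.49 to 14.7 CPM. Without libraries 2 and 3 of IM24h, 7 of 19 transcription factors and 3 of 23 feedback genes fell, and the calls of *Nfkbia* (adjusted p = 0.0863), *Zfp36* (0.0863) and *Spry2* (0.0688 in edgeR) were lost.

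Among secreted factors, *Hbegf*, a ligand of the EGF receptor, showed the smallest adjusted p of all named genes. Its levels were 1768, 2411, 2688 and 2954 CPM at IM3h and 53.5, 43.9, 55.8 and 80.2 CPM at IM24h. The late libraries were 42.1-fold lower on average and all above the naïve 21.5 to 34.4 CPM, with a log2 fold change of -5.39 ± 0.40 (adjusted p = 4.27e-05 in edgeR). *Gdnf*, a survival factor for enteric neurons and their precursors, was at 426, 665, 614 and 615 CPM at IM3h and at 44.9, 36.8, 12.3 and 95.7 CPM at IM24h. Of the 4 late libraries, 3 exceeded the highest naïve value of 14.8 CPM (log2 fold change -3.60 ± 0.52, adjusted p = 0.00515 in edgeR). *Tgfb2* fell from 639 to 897 CPM to 96.1 to 292 CPM, below the naïve 375 to 534. *Pdgfa* had 299.6 to 429 CPM at IM3h and 1.17 to 145 CPM at IM24h, with an adjusted p of 0.102 in edgeR. In edgeR, 3 of 18 tested growth factors fell (0.903% of all genes did) and none rose, with a median log2 fold change of -1.17. DESeq2 and voom each also called 1 higher. The median relative to all genes went from -1.07 to -2.01 without library 4 of IM24h.

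Cytokines and chemokines gave a single call in the edgeR fit of all 8 libraries. Of 18 tested, *Ccl6* rose and none fell. At the threshold of the study 4 were lower (7.09% of all genes were) and 2 higher (6.82%). DESeq2 called 2 higher and 2 lower, and voom and edgeR without libraries 2 and 3 of IM24h each called 2 higher and 1 lower. *Ccl6*, a chemokine of myeloid cells, was at 9.40, 6.30, 10.1 and 21.9 CPM at IM3h and at 147, 85.6, 91.6 and 79.9 CPM at IM24h. All late libraries exceeded all early and naïve ones (naïve 3.85 to 26.6 CPM, log2 fold change 3.08 ± 0.50, adjusted p = 0.00985 in edgeR). *Ccl2*, the chemokine that draws monocytes, had 54.8 to 282 CPM at IM3h and 4.40, 15.4, 1.17 and 49.4 CPM at IM24h. The groups did not overlap, but library 4 of IM24h came close to library 4 of IM3h and the adjusted p was 0.0896 in edgeR. *Cxcl1*, a neutrophil chemokine, ranged from 9.98 to 28.0 CPM and from 0 to 6.36 CPM (adjusted p = 0.301), and *Cxcl10*, an interferon-induced chemokine, from 9.44 to 26.9 CPM and from 0 to 6.62 CPM (adjusted p = 0.276 in edgeR). *Il6* was low throughout, at 0 to 11.3 CPM at IM3h, 0 to 9.16 CPM at IM24h and 0 in all naïve libraries.

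*Mt2* and *Mt1*, which encode metallothioneins that bind zinc and copper, fell from high early levels. They were the 2 calls among 5 tested genes of metallothioneins and zinc transport (0.903% of all genes fell). *Mt2* was at 8048, 4357, 2031 and 1790.2 CPM at IM3h and at 138, 35.7, 107 and 206 CPM at IM24h, which is 33.4-fold lower on average (log2 fold change -5.06 ± 0.66, adjusted p = 0.0026 in edgeR). *Mt1* went from 5586, 3724, 2463 and 2372 CPM to 243, 252, 277 and 684 CPM (log2 fold change -3.28 ± 0.48, adjusted p = 0.00515 in edgeR). The late libraries still exceeded the naïve 85.4 to 120.2 CPM for *Mt1*, whereas library 2 overlapped the naïve 19.1 to 57.7 CPM for *Mt2*. *Mt3*, the form of neural tissue, was at 0.606 to 4.17 CPM at IM3h and had a log2 fold change of -0.83 with an adjusted p of 0.85. *Srxn1*, which restores oxidized peroxiredoxins, was at 1264, 1195, 903 and 522 CPM at IM3h and at 49.5, 1.10, 2.35 and 43.0 CPM at IM24h. The shallow libraries were below and the others above the naïve range of 23.5 to 30.3 CPM (log2 fold change -5.29 ± 0.92, adjusted p = 0.0148 in edgeR). Of 17 heat shock genes, 1 fell (0.903% of all genes did) and none rose in edgeR. DESeq2 called 4 lower and 1 higher, and edgeR without library 1 of IM24h called 3 lower and 2 higher. *Cryab*, a small heat shock protein of glia and muscle, went from 108 to 793 CPM to 3.52 to 62.6 CPM (adjusted p = 0.0366), a call that was lost without libraries 2 and 3 (adjusted p = 0.0744 in edgeR). *Hspb8*, a chaperone of the same family, had a log2 fold change of 1.76 with an adjusted p of 0.0834, and *Hspa1a*, which has a near-identical neighbour that reads can be shared with, one of -3.92 with an adjusted p of 0.199. The late level of *Hspa1a* rested on library 1, with 24 counts where the others held 0, and without that library its adjusted p was 0.03 in edgeR.

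**Figure D2:**
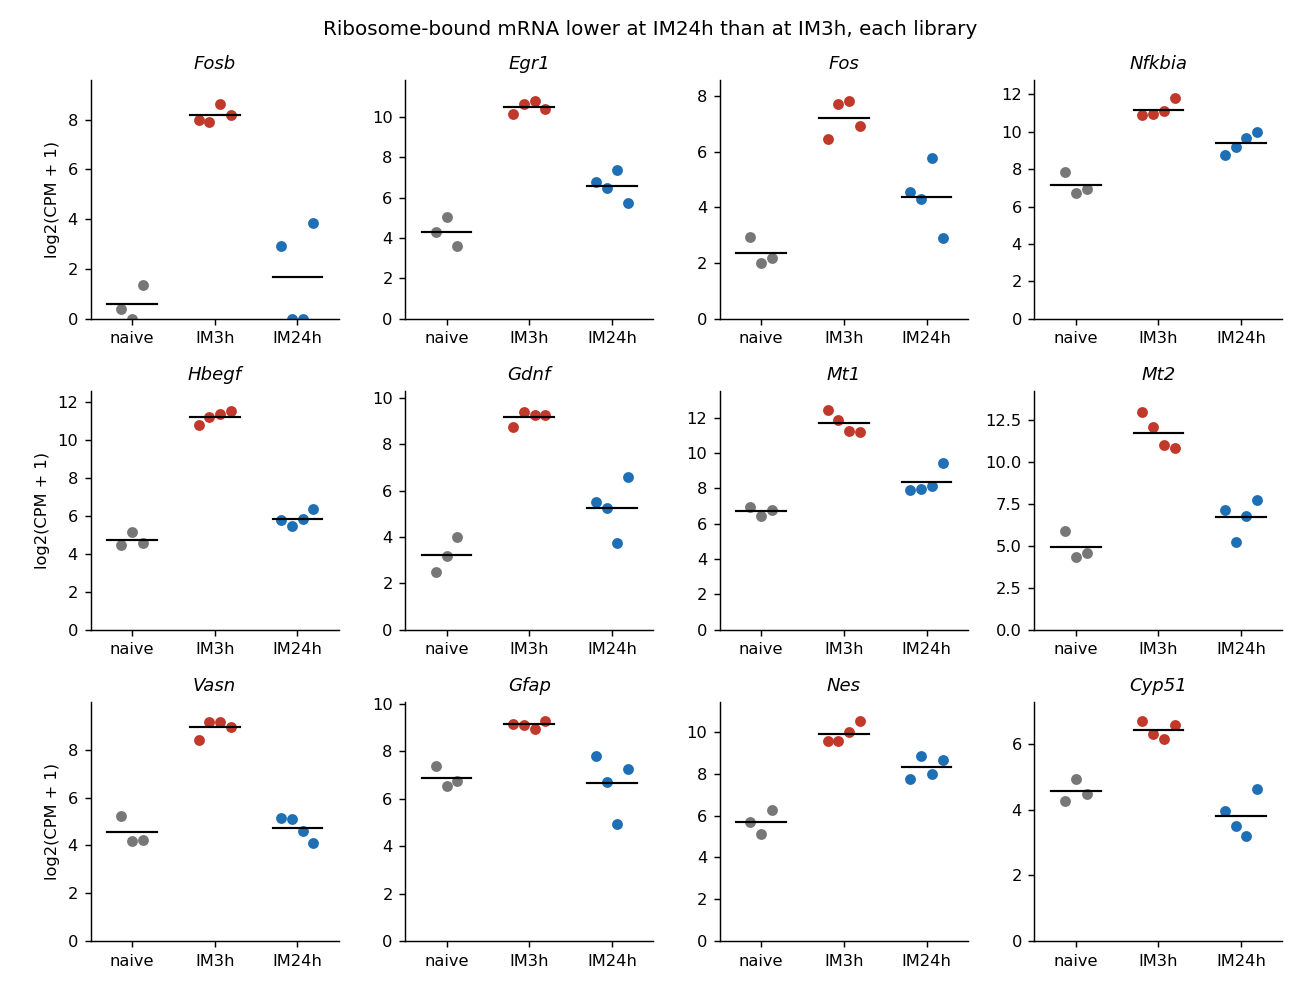
Levels of 12 genes that fell, as log2(CPM + 1) in each naïve, IM3h and IM24h *RiboTag* library. Lines are group means of the log values, and in every panel the 4 IM24h points lie below the 4 IM3h points.

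Calls among regulators of matrix and protease activity were falls in the edgeR fit of all 8 libraries. Of 20 tested, 4 fell (0.903% of all genes did) and none rose. At the threshold of the study 5 were lower (7.09%) and 3 higher (6.82%). Beside 4 lower genes each, DESeq2 called 1 higher, voom 2, and edgeR without library 1 of IM24h 1. *Adamts1*, a protease that cleaves proteoglycans, fell from 187 to 415 CPM to 1.76 to 51.5 CPM. *Timp3*, an inhibitor of metalloproteases, fell from 808 to 1619.7 CPM to 92.8 to 513 CPM. *Cd44*, the receptor for hyaluronan, fell from 327 to 549 CPM to 56.4 to 168 CPM. *Tnfaip6*, which modifies hyaluronan and does not belong to this list, fell from 13.9 to 69.9 CPM to 0 to 4.70 CPM. *Vasn*, a membrane protein that binds TGF beta, fell from 339.7 to 578 CPM to 16.3 to 34.0 CPM, and its late libraries lay at the naïve level of 17.3 to 36.2, with library 4 just below it (log2 fold change -4.22 ± 0.39, adjusted p = 0.000129 in edgeR). The call of *Timp3* was lost without libraries 2 and 3 (adjusted p = 0.0853 in edgeR).

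Promoter windows from 250 bases before to 50 after the start of RefSeq genes (build GRCm38.p6) were searched on both strands for short motifs, for 61 of the 133 genes that rose, 95 of the 128 that fell and 9813 of all genes tested. The AP-1 site, TGANTCA, was in 9.84% of windows of genes that rose, 10.5% of genes that fell and 4.75% of all. The full cAMP response element, TGACGTCA, was in 3.28%, 2.11% and 3.32%. The E2F forms TTTCCCGC and TTTGGCGC were in 1.64%, 3.16% and 3.02%, the NF-kB motif in 3 full-length forms in 0%, 1.05% and 0.346%, and the CCAAT box in 45.9%, 29.5% and 38%. A match is a run of letters and no proof of binding. Of 27 named genes that fell and have a window, 4 hold an AP-1 or NF-kB match before the start, and these upstream stretches are shown because their genes fell and their factors are built or held back by members of the lists above. The match is in capitals and the rest in lower case, read 5′ to 3′ on the strand of the gene. *Mt2* (chr8:94172368-94172617, plus strand) and *Tnfaip6* (chr2:52037863-52038112, plus strand) have 1 AP-1 match, *Srxn1* (chr2:152105274-152105523, plus strand) has 2, which begin 102 and 45 bases before the start, and *Nfkbia* (chr12:55492648-55492897, minus strand) has an NF-kB match that begins 29 bases before the start.
Mt2: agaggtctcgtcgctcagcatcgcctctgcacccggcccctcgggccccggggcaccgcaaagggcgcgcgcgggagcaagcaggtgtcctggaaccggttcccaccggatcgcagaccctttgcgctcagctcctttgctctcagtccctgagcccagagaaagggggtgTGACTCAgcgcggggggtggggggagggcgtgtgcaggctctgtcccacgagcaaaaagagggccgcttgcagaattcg
Tnfaip6: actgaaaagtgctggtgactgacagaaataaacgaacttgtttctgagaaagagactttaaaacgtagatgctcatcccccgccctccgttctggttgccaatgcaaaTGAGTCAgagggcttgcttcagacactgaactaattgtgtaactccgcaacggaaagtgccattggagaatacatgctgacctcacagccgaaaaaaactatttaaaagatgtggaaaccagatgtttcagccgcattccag
Srxn1: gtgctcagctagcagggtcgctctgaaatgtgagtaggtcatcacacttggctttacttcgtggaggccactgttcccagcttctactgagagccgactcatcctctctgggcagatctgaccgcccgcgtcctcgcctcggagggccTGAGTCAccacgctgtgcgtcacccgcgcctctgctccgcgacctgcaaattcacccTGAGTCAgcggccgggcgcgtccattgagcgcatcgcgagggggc
Nfkbia: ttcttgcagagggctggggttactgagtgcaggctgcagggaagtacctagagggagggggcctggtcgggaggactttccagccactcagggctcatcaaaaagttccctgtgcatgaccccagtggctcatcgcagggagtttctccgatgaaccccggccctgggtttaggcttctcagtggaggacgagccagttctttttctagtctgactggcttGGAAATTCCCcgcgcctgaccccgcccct

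The 2 collagen calls in the edgeR fit of all 8 libraries were falls, while other fits called rises too. *Col12a1* and *Col18a1*, which associate with fibrils and basement membranes, fell from 152 to 205 CPM to 38.4 to 65.2 CPM and from 343 to 438 CPM to 69.8 to 203 CPM, in each case below the naïve libraries. The call of *Col18a1* was lost without libraries 2 and 3 (adjusted p = 0.102 in edgeR, 0.0498 with them). *Col6a3*, whose log2 fold change of 1.37 became -0.08 without scaling for library size, and *Col1a2* were higher at IM24h with no overlap, at 176 to 361 against 86.8 to 117 CPM and at 321 to 896 against 186 to 270.4 CPM, but missed the threshold (adjusted p = 0.0502 and 0.0694 in edgeR). Of the 17 collagens tested, 2 fell (0.903% of all genes did) and none rose. At the threshold of the study 4 were lower (7.09%) and 5 higher (6.82%). The list median relative to all genes went from 0.34 to -0.13 without library 1 of IM24h. DESeq2 called 4 higher and 4 lower, voom 4 and 2, and edgeR 3 and 2 with naïve libraries in the fit, 1 and 2 without library 1 of IM24h, 1 and 2 with genes listed in either table, and 1 and 1 with the size factors of DESeq2. Summed markers of fibroblasts and *Pdgfra* cells were at 525 to 809.8 CPM at IM3h and 714 to 2046 CPM at IM24h (exact permutation test, p = 0.114), and their part in the collagen values was not tested.

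Calls among genes of enteric glia were falls too. Of 20 tested markers, 4 fell (0.903% of all genes did) and none rose. A negative log2 fold change was found in 19 (53.5% of all genes), and the median of the list was -1.22. *Gfap*, the intermediate filament used as a sign of gliosis, was at 575, 559.9, 495 and 628 CPM at IM3h and at 225, 103, 29.4 and 152 CPM at IM24h, where naïve libraries held 92.9 to 166. The late libraries straddled the naïve range and all were below the early ones (log2 fold change -2.14 ± 0.48, adjusted p = 0.0421 in edgeR). *Nes*, an intermediate filament of progenitors and reactive glia, had 771, 764, 1040 and 1482 CPM at IM3h and 215, 466, 257 and 409 CPM at IM24h, all well above the naïve 34.4 to 75.5 (log2 fold change -1.59 ± 0.37, adjusted p = 0.0471 in edgeR). *Apoe*, a lipid carrier, and *Scn7a*, a sodium-sensing channel of glia, fell from 1560.4 to 2361 CPM to 189 to 837 CPM and from 608 to 1047 CPM to 167 to 291 CPM, both below naïve levels. *Vim*, a filament of many non-epithelial cells, had 977 to 1245 and 127 to 872 CPM (adjusted p = 0.172 in edgeR). *S100b* was at 439, 348, 555 and 2267 CPM at IM3h and at 263, 624, 691 and 381 CPM at IM24h, so that the early mean rested on library 4 and the log2 fold change of -0.88 became 0.06 without it. *Sox10* overlapped between the times, with a log2 fold change of -0.75 ± 0.61 (adjusted p = 0.624 in edgeR). The sum over the glial list was lower in each IM24h library than in every IM3h one (p = 0.0286, the smallest possible, adjusted p = 0.105 over 11 marker lists, exact permutation test). Without libraries 2 and 3, *Gfap* and *Scn7a* still fell (adjusted p = 0.0402 and 0.0397), whereas *Nes* and *Apoe* did not (0.0682 and 0.0947 in edgeR).

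The study's own acute enteric gliosis list held 215 tested genes of 242. It was drawn up partly by the fold change of the same IM3h libraries against naïve ones, of either sign in its supplement. It is therefore not independent evidence of direction, neither for falls nor for rises. Of the 215 tested genes, 40 fell (0.903% of all genes did) and 5 rose (0.939%). A negative log2 fold change was found in 183 (53.5% of all genes), and the median was -1.46. Without libraries 2 and 3 of IM24h, 50 of 219 fell and 6 rose.

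Lipid, interferon and energy genes gave few calls. Of 22 genes of cholesterol synthesis, 18 had a negative log2 fold change (53.5% of all genes did), 12 were lower with no overlap (10.4%), 6 were lower at the threshold of the study (7.09%) and 1 fell (0.903%). This was *Cyp51*, the lanosterol demethylase, with 102, 77.1, 69.7 and 94.2 CPM at IM3h and 14.4, 10.4, 8.22 and 23.4 CPM at IM24h. The late values were below the naïve 18.1 to 29.5 except in library 4, which lay inside that range (log2 fold change -2.59 ± 0.47, adjusted p = 0.0183 in edgeR). *Msmo1*, a later step of the pathway, had a log2 fold change of -1.43 (adjusted p = 0.0543 in edgeR). In the fit without libraries 2 and 3, 4 genes of this list fell. Of 22 interferon response genes, none was called in the edgeR fit of all 8 libraries. At the threshold of the study 11 were lower (7.09% of all genes were), and the median was -1.37. DESeq2 and voom called 4 lower each, and edgeR called 2 with naïve libraries in the fit, 2 without scaling and 1 without libraries 2 and 3. *Irf1*, an interferon-induced factor, was at 160.5 to 188 CPM at IM3h and at 34.6 to 90.6 CPM at IM24h (adjusted p = 0.0694 in edgeR). *Irf7*, which acts in the same response, was at 2.45 to 10.3 CPM at IM3h and at 0 in all 4 late libraries, at least 4.97-fold lower against 3 counts per library (adjusted p = 0.0794 in edgeR). Of 41 respiratory chain genes none was called in edgeR or DESeq2. At the threshold of the study 3 were lower (7.09% of all genes were) and 1 higher (6.82%), and the median was -0.59. Among adrenergic receptors and cAMP signaling, *Pde4b*, a phosphodiesterase that degrades cAMP, was the 1 call of 22 in the edgeR fit of all 8 libraries. Over all genes, 0.903% fell in that fit. DESeq2 called 1 higher and 2 lower, and 2 were lower by voom and in edgeR with naïve libraries in the fit, without a filter and without libraries 2 and 3. *Pde4b* went from 348, 367, 385 and 342 CPM to 146, 35.7, 75.8 and 104 CPM, where naïve libraries held 69.2 to 101 CPM. Of the late group, library 2 lay below that range, library 3 inside it and the others above it (log2 fold change -1.99 ± 0.40, adjusted p = 0.026 in edgeR). *Adrb1* varied from 0 to 125 CPM within IM24h and from 0 to 8.19 CPM within IM3h (adjusted p = 0.421 in edgeR).

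Calls among genes of DNA replication were rises. Of 32 tested, 3 rose (0.939% of all genes did), none fell, and 23 had a positive log2 fold change (46.5%). The median was 0.74. At the threshold of the study 6 were higher (6.82% of all genes were) and 2 lower (7.09%). DESeq2 called 6 higher and 1 lower. Without library 2 of IM24h the median was 0.28, and relative to all genes it went from 0.84 to 0.43. *Mcm3*, a subunit of the replicative helicase, was at 2.71, 6.30, 14.1 and 18.0 CPM at IM3h and at 25.4, 65.9, 145 and 94.4 CPM at IM24h. Every late library exceeded every early and naïve one (naïve 1.82 to 5.14, log2 fold change 3.0 ± 0.69, adjusted p = 0.0442 in edgeR). *Chaf1a*, a subunit of the histone chaperone that loads new nucleosomes behind the fork, had 1.65, 4.0, 1.34 and 20.6 CPM at IM3h and 8.98, 214, 207 and 123 CPM at IM24h. Library 1 of the late group overlapped library 4 of the early one (log2 fold change 4.32 ± 1.01, adjusted p = 0.049 in edgeR), and without the latter the log2 fold change was 5.80. *Lig1*, the ligase that joins the fragments of the lagging strand, had 15.8, 11.8, 14.9 and 39.7 CPM at IM3h and 56.2, 82.4, 161 and 109 CPM at IM24h (log2 fold change 2.31 ± 0.51, adjusted p = 0.0403 in edgeR). *Cdt1*, a licensing factor for replication origins, was at 20.8 to 41.1 CPM at IM3h and 0 to 5.85 CPM at IM24h (adjusted p = 0.132 in edgeR), and fell without libraries 2 and 3 (adjusted p = 0.0341 in edgeR). The calls of *Mcm3*, *Chaf1a* and *Lig1* were lost without libraries 2 and 3, with adjusted p-values of 0.108, 0.167 and 0.0863 in edgeR and log2 fold changes of 2.44, 3.16 and 1.91.

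Mitosis genes gave no call in the edgeR fit of all 8 libraries. Of 23 tested, 21 had a positive log2 fold change (46.5% of all genes did), and the median was 1.39. At the threshold of the study 4 were higher (6.82% of all genes were) and none lower. DESeq2 called 4 higher and none lower. Voom called 5 higher, and edgeR called 3 with naïve libraries in the fit, 3 without library 1 of IM24h and 1 without library 3. *Top2a*, the topoisomerase of dividing cells, had 12.8, 6.18, 10.7 and 34.9 CPM at IM3h and 31.5, 150.4, 45.2 and 206 CPM at IM24h (log2 fold change 2.74 ± 0.69, adjusted p = 0.0654 in edgeR). *Mki67*, the Ki67 antigen, was at 1.21 to 8.95 CPM and at 12.4, 20.3, 0 and 15.0 CPM, so that library 3 held no count of it (adjusted p = 0.655 in edgeR). *Kif15*, a spindle kinesin, and *Smc2*, a condensin subunit, had log2 fold changes of 3.98 and 2.96 (adjusted p = 0.0721 and 0.0694 in edgeR), and that of *Kif15* was 5.26 without library 2 of IM3h. In the same libraries the summed markers of macrophages and monocytes had means of 235 CPM at IM3h and 766 CPM at IM24h, and those of neutrophils 14.8 and 68.4 CPM, both without overlap. Their part in the replication and mitosis values was not tested.

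Calls among genes of monocytes and macrophages were rises. Of 18 tested markers, 4 rose (0.939% of all genes did) and none fell. A positive log2 fold change was found in 14 (46.5% of all genes), and the median was 0.91. Without library 4 of IM3h the median was 1.40, and relative to all genes it went from 1.01 to 1.53. *Ccr2*, the receptor for CCL2 on monocytes, was at 6.59, 3.52, 12.7 and 4.05 CPM at IM3h and at 75.5, 41.7, 59.3 and 78.7 CPM at IM24h, where naïve libraries held 7.99 to 10.6 (log2 fold change 3.25 ± 0.59, adjusted p = 0.019 in edgeR). Every late library was above every early one. *Itgam*, the CD11b integrin chain, had 9.21 to 18.5 CPM at IM3h and 15.6, 153, 274 and 194 CPM at IM24h. Library 1 of the late group thus stayed in the early range. *C1qa*, a complement subunit made by macrophages, was at 16.8 to 49.8 CPM at IM3h and 87.7 to 194 CPM at IM24h (log2 fold change 2.26 ± 0.47, adjusted p = 0.0289 in edgeR). The summed level of the 21 macrophage and monocyte markers was 165 to 339.6 CPM at IM3h and 628 to 918 CPM at IM24h. It was 177 to 376 CPM in naïve libraries. Of these markers, *Chil3* was not listed at IM3h, and its level there was set to 0 rather than measured. The 9 neutrophil markers that the tables list summed to 8.0 to 22.2 CPM at IM3h and 33.7 to 100 CPM at IM24h. Neither sum overlapped between the times (exact permutation test, p = 0.0286 each, the smallest possible, adjusted p = 0.105). The part of leukocyte RNA in these libraries was not tested. Without libraries 2 and 3, *Ccr2* and *C1qa* still rose (adjusted p = 0.0144 and 0.0413), and *Itgam* did not (0.0775 in edgeR).

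Single genes of other lists rose too. *Myocd*, the coactivator that drives smooth muscle genes, was at 30.9, 39.2, 55.2 and 41.2 CPM at IM3h and at 116, 218, 152 and 181 CPM at IM24h (log2 fold change 2.0 ± 0.36, adjusted p = 0.0169 in edgeR). No other of 14 smooth muscle genes was called in that fit, and 10 had a negative log2 fold change (53.5% of all genes did). The calponin gene *Cnn1* had one of -1.78 and *Lmod1*, of the same list, one of 1.77 (adjusted p = 0.0541 and 0.0693 in edgeR). DESeq2, voom and edgeR without library 1 of IM24h each called 2 higher and 3 lower, and edgeR with naïve libraries in the fit 2 and 2. *Rps9* was the 1 call among 32 ribosomal proteins of the small subunit in the edgeR fit of all 8 libraries (0.939% of all genes rose). DESeq2 called 3 higher and 1 lower, voom 4 and 1, and edgeR without library 1 of IM24h 4 and 0. *Rps9* had 548 to 803 CPM at IM3h and 737, 3637, 5195 and 3429 CPM at IM24h, with library 1 inside the early range, and its call was lost without libraries 2 and 3 (adjusted p = 0.131 in edgeR). Of 18 neuronal markers none was called in the edgeR fit of all 8 libraries. DESeq2 and edgeR with naïve libraries in the fit each called 1 lower. At the threshold of the study 3 were lower (7.09% of all genes were). *Snap25*, a synaptic vesicle fusion protein, had 72.9 to 191 CPM at IM3h and 18.1 to 47.1 CPM at IM24h (adjusted p = 0.0832 in edgeR).

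**Figure D3:**
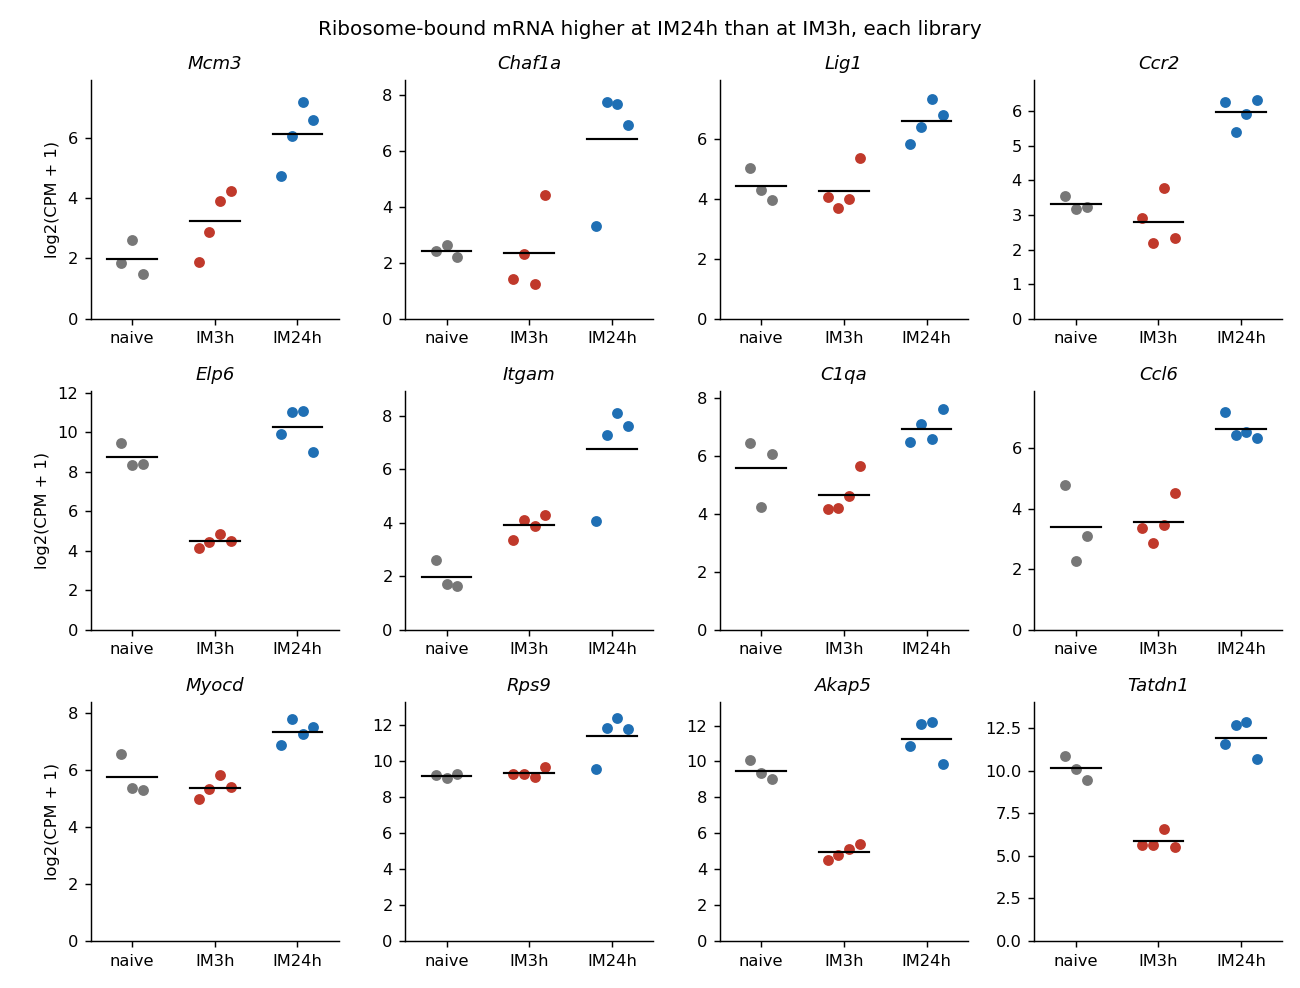
Levels of 12 genes that rose, as log2(CPM + 1) in each naïve, IM3h and IM24h *RiboTag* library. Lines are group means of the log values, and library 1 of IM24h is the lowest late point for *Mcm3*, *Chaf1a*, *Lig1*, *Itgam*, *C1qa*, *Myocd* and *Rps9*.

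**Figure D4:**
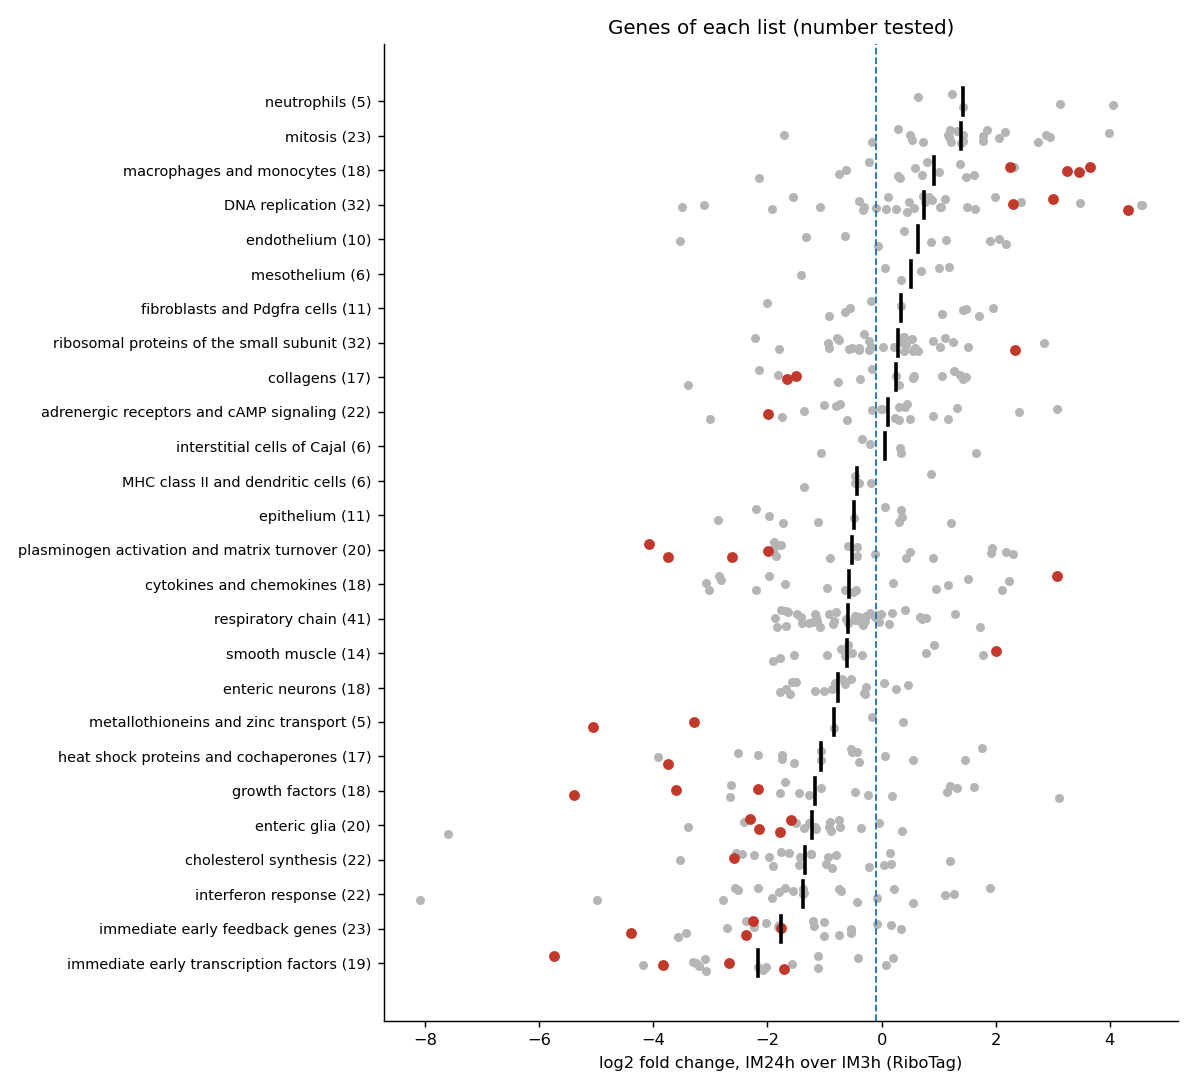
Log2 fold change of IM24h over IM3h for each tested gene of the pathway and marker lists, with the number tested in parentheses. Red points passed an adjusted p of 0.05, grey points did not, black bars are list medians and the dashed line is the median of all genes at -0.10.

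The largest changes with no overlap and a mean of at least 10 CPM included genes outside the pathway and marker lists. *Dnah14*, a heavy chain of axonemal dynein, was at 32.2, 51.8, 57.3 and 52.9 CPM at IM3h and at 0, 0, 0.587 and 0 CPM at IM24h. The late group thus held 1 count in all, while naïve libraries held 1.30 to 25 CPM (adjusted p = 0.0019 in edgeR). *Hilpda*, a lipid droplet protein induced by hypoxia that is on the gliosis list of the study, fell from 9.32 to 50.1 CPM to 0 to 3.05 CPM. Among the rises, *Kirrel2*, a cell adhesion protein, had 0 counts in all IM3h libraries and 4.74, 12.6, 83.4 and 2.55 CPM at IM24h, at least 70.4-fold more against 3 counts per library and at least 18.1-fold more without library 3. *Cd180*, a receptor of B cells and macrophages, was at 0 to 0.97 CPM and at 6.44, 24.7, 94.6 and 5.09 CPM, and *Rasgrp1*, an activator of RAS in lymphocytes, at 0 to 0.388 CPM and at 2.54, 4.39, 153 and 2.80 CPM. Library 3 of IM24h held most of all 3, and without libraries 2 and 3 none of them was called (adjusted p = 0.167, 0.302 and 0.369 in edgeR). The noncoding RNAs *Bc1* and *Snora73b*, a small nucleolar RNA, had 0 to 0.242 and 0 to 2.98 CPM at IM3h and 7.38 to 51.1 and 33.0 to 123 CPM at IM24h. Naïve libraries held 3.03 to 12.1 CPM of *Bc1*, above its IM3h level.

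*Akap5*, *Elp6*, *Lrrc17* and *Tatdn1*, which are on the gliosis list of the study, rose by similar amounts. *Akap5*, an anchor for protein kinase A, was at 21.7, 27.0, 33.6 and 40.8 CPM at IM3h and at 1837, 4361, 4632 and 943 CPM at IM24h, where naïve libraries held 1082, 645 and 525. It was thus lower at IM3h than in any naïve library and then 95.6-fold higher at IM24h than at IM3h (log2 fold change 6.58 ± 0.60, adjusted p = 0.000129 in edgeR). *Elp6*, a subunit of the Elongator complex, had 16.7 to 27.5 CPM at IM3h, 521 to 2157 CPM at IM24h and 328 to 716 CPM in naïve libraries. *Lrrc17*, a secreted leucine-rich repeat protein, had 23.5 to 35.6, 748 to 3680 and 454 to 886 CPM, and *Tatdn1*, a putative DNase, 45.4 to 93.2, 1628 to 7578 and 717 to 1839.8 CPM. In each of them libraries 2 and 3 of IM24h, which also held the most *AY036118*, were the highest and library 4 the lowest of the late group. *Ccdc36*, a gene of meiotic recombination, and *mt-Tn*, the mitochondrial tRNA for asparagine, had 0.485 to 10.5 and 4.05 to 5.81 CPM at IM3h and 67.0 to 281 and 35.2 to 88.9 CPM at IM24h. The genes lie apart on the mm10 build, *Akap5* at chr12:76324891-76334153, *Elp6* at chr9:110305173-110322102, *Lrrc17* at chr5:21543559-21575904 and *Tatdn1* at chr15:58890155-58933738. All 6 were called without libraries 2 and 3 as well, with log2 fold changes of 5.41, 5.01, 5.19 and 5.19 for the 4 and 4.95 and 3.09 for *Ccdc36* and *mt-Tn*.

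Of the 53 named genes that were called, all kept their direction when 1 library was left out at a time, but 16 stayed past the threshold in all 8 such fits. These were *Akap5*, *Ccdc36*, *Dnah14*, *Egr1*, *Elp6*, *Errfi1*, *Fosb*, *Gdnf*, *Hbegf*, *Lrrc17*, *Mt1*, *Mt2*, *Spred2*, *Srxn1*, *Tatdn1* and *Vasn*. The number of named genes whose call was lost was 37, 37, 34 and 19 without libraries 1 to 4 of IM3h and 3, 33, 12 and 30 without libraries 1 to 4 of IM24h, with adjusted p-values up to 0.215. *Mcm3* then reached 0.173, *Fos* 0.131, *Gfap* 0.123, *Nfkbia* 0.108, *Ccr2* 0.0915 and *Ccl6* 0.0571 (adjusted p, edgeR). Some called genes moved by more than 1.5-fold. Without library 1 of IM24h the log2 fold change was -4.57 for *Adamts1*, -3.09 for *Apoe*, -3.53 for *Timp3*, -4.92 for *Hilpda* and -5.90 for *Srxn1*, against -3.75, -2.30, -2.62, -4.31 and -5.29 with it. Without library 4 of IM24h it was -6.74 for *Fosb*, -4.24 for *Gdnf*, -4.39 for *Cryab* and -5.02 for *Ier2*, against -5.75, -3.60, -3.74 and -4.39. It was -3.37 for *Fos* without library 3 of IM24h, 6.39 for *Ccdc36* without library 4 of IM3h, and 5.04 or 6.99 for *Snora73b* without library 3 of IM24h or of IM3h. The fitted values of *Bc1*, *Cd180*, *Dnah14*, *Kirrel2* and *Rasgrp1*, with few or no counts at 1 of the times, moved as well. Among genes that were not called, *Cnn1*, *Col6a3*, *Hspa1a*, *Hspb8*, *Kif15*, *Pdgfa*, *Smc2*, *Top2a* and *Vim* passed the threshold without library 1 of IM24h, *Nr4a1* without library 2, *Msmo1*, *Pdgfa* and *Top2a* without library 3 and *Ccl2* without library 4, with adjusted p-values of 0.0114 to 0.0482 in edgeR. *Sox10* went to -1.48 without library 1 of IM24h and *Mt3* to -1.99 without library 4.

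The change in ribosome-bound mRNA was then set against the change in total *ME* RNA over the same times, by the interaction term of a joint fit. Of 17683 genes, 134 differed between fractions (0.758%), of which 68 changed more positively (0.385%) and 66 more negatively (0.373%) in the *RiboTag* fraction. Total *ME* RNA itself gave 67 rises (0.379%) and 172 falls (0.973%). Because mouse line and time coincide in the *ME*, a difference between fractions can also be one between lines. The share of *AY036118* went the other way in the *ME*, from 24.06% to 25.146% at IM3h to 1.328% to 6.501% at IM24h. Of the 19 immediate early transcription factors, none differed between fractions in edgeR, 10 were lower at IM24h in the *ME*, and *Fosb* changed by a log2 value of -7.14 there, *Egr1* by -2.65 and *Fos* by -3.42. Of the growth factors, *Gdnf* changed by -3.08 in the *ME*. *Hbegf* changed by -2.72 in the *ME*, where it was at 125 ± 12.3 CPM (SD, n = 3) early and 17.5 ± 6.38 CPM (SD, n = 4) late, and its interaction term was -2.71 ± 0.44 (adjusted p = 0.00457 in edgeR). *Mt2* was at 1952 ± 243 CPM (SD) and 646 ± 374 CPM in the *ME*, a log2 change of -1.48, and its interaction term was -3.62 ± 0.79 (adjusted p = 0.0401 in edgeR). *Spred2* had a log2 change of 0.00 in the *ME* (26.5 ± 6.79 and 24.6 ± 4.30 CPM, SD) against the fall in the pull-down, with an interaction of -3.41 ± 0.54 (adjusted p = 0.00366 in edgeR). *Col12a1* differed likewise (interaction -2.04 ± 0.46, adjusted p = 0.0458 in edgeR). *Rpl23a-ps3*, a pseudogene whose reads can also belong to its parent gene, went from 19.5 to 77.8 CPM to 0 to 1.27 CPM in the pull-down and changed by 0.24 log2 units in the *ME* (interaction -6.17 ± 0.97). *Hspb8* had a log2 change of -1.54 in the *ME* beside the 1.76 above (interaction 3.25 ± 0.58, adjusted p = 0.011 in edgeR). *Rab31*, a small GTPase of vesicle traffic, went from 20.8 ± 1.83 to 66.8 ± 6.03 CPM (SD) in the *ME* and from 75.5 to 116 CPM to 38.2 to 55.5 CPM in the pull-down (interaction -2.77 ± 0.41, adjusted p = 0.00202 in edgeR). *Ccr2*, *C1qa* and *Ccl6* changed by 3.09, 2.40 and 2.92 log2 units in the *ME*, with interaction terms past no threshold (adjusted p = 0.952, 0.93 and 0.955 in edgeR). *Akap5*, *Elp6*, *Lrrc17* and *Tatdn1* had *ME* log2 changes of -1.33, -1.12, -0.90 and -0.82 and interaction terms of 7.86, 7.13, 7.19 and 7.09 (adjusted p = 1.31e-06 each in edgeR).

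**Figure D5:**
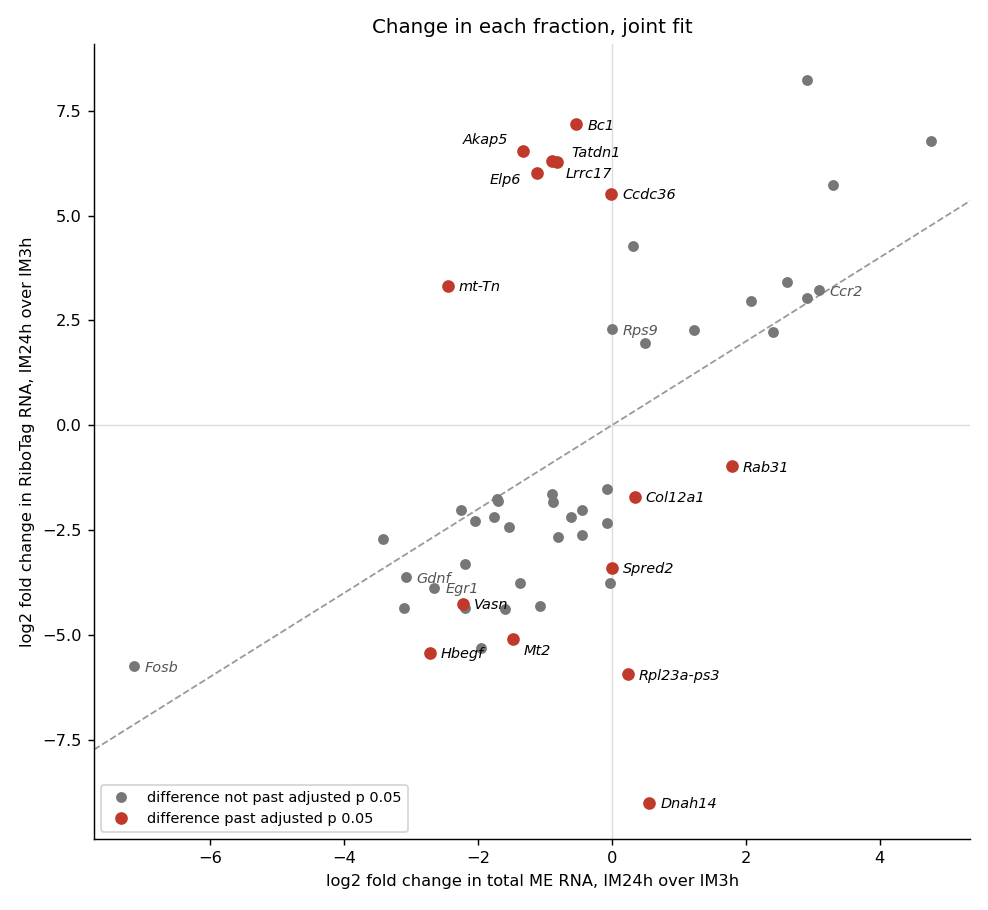
Log2 fold change of IM24h over IM3h in total *ME* RNA (horizontal) and in *RiboTag* RNA (vertical) for the named genes that were called and have a value in both fractions, and for the genes named for the smallest p of the difference between fractions, from 1 joint fit. The dashed line marks equal change, red points differ between fractions at an adjusted p under 0.05, and in the *ME* *Fosb* lies at -7.14 and *Akap5* at -1.33.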

How the data were processed

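Ribosome-bound and total *ME* RNA of mice was sequenced as single-end 3′ end libraries. The authors trimmed the reads with cutadapt, used STAR for the alignment (mm10) and took transcript counts in Partek Flow. The deposited values used here are estimated counts that the authors did not scale for library size, per transcript in 1 table per time point for *RiboTag* libraries and per gene for total *ME* RNA. The naïve counts of both *RiboTag* tables differ by 0 where a transcript is in both, and the lowest row total is 10. The authors' own comparisons with naïve mice (fold changes and p-values) were not used. Library names match no label, so the group came from the entry of each row and library numbers are only names, and p-values measure the spread between these libraries, which may be technical. The tables hold 3 of 4 labelled naïve samples, and 0 columns of other samples were used.

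Transcripts were summed to 20664 genes listed in both tables and rounded. edgeR 4.0.16 (R 4.3.3) was run with TMM factors over all 11 *RiboTag* libraries, filterByExpr and the two-sided quasi-likelihood test on the 8 libraries of both times, and a joint fit with 7 *ME* libraries gave the interaction. Levels are TMM-scaled CPM, errors of log2 values are standard errors, and floors of 3 counts cover counting error only. Alternatives were DESeq2 1.42.0, voom of limma 3.58.1 with quality weights, other scales and filters, and leaving out libraries. Leaving out libraries 2 and 3 of IM24h together was chosen after seeing the data. In data simulated with the real spread, 34.5% of genes changed 8-fold and 3% of those changed 4-fold were found with 0 false calls. With a dispersion of 0.05 the shares were 100% and 97.5%, with 6 and 12 false calls. Both times were drawn from the same mean profile with the same dispersion per gene. The false calls therefore do not cover shifts in composition or unequal spread between the times. For the interaction, 19% of genes changed 8-fold were found with the real spread.

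Named genes are a set list, up to 4 members of each gene list with the smallest adjusted p, the 10 largest rises and 10 largest falls without overlap and with a mean of at least 10 CPM, passing over unnamed models and pseudogenes, and the 5 smallest interaction p-values in each direction, and results of some genes that this names are not reported here. Members and lists were chosen with earlier results of these data known. Coordinates of genes were read from GENCODE (mm10).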

Additional observations from a re-analysis of the deposited data

Results flagged for a closer look

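The gap between 1 library and the nearest of its group, relative to the range of the group, passed Dixon's critical value in 20 of 188 groups checked, where chance gives about 1 in 20. In 3 of these (*Dnah14* and *Hspa1a* at IM24h, *Rasgrp1* at IM3h) the other libraries were all at 0, so that the statistic is 1 whatever the value, and for *Hspb8* they were at 154 to 158 CPM, so a large statistic need not mean a large difference. In libraries of IM3h these values were, in CPM, 10280.3 for the summed glial markers, 2267 for *S100b*, 20.6 for *Chaf1a* and 39.7 for *Lig1* in library 4, 93.2 for *Tatdn1* in library 3, 0.97 for *Cd180* and 5.70 for *Kif15* in library 2, and 75.8 for the summed endothelial markers, 0.388 for *Rasgrp1* and 181 for *Hspb8* in library 1. In libraries of IM24h they were 837 for *Apoe*, 10.7 for *Atf3*, 4.07 for *Hspa1a* and 513 for *Timp3* in library 1, 51.1 for *Bc1* in library 2, 83.4 for *Kirrel2*, 0.587 for *Dnah14*, 153 for *Rasgrp1* and 123 for *Snora73b* in library 3, and 684 for *Mt1* in library 4.

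The change from IM3h to IM24h differed between the *RiboTag* and *ME* fractions by the interaction test in edgeR for the following named genes, given as the *RiboTag* log2 change minus the *ME* log2 change. It was more positive for *Akap5* (7.86), *Bc1* (7.72, adjusted p = 0.0124), *Lrrc17* (7.19), *Elp6* (7.13), *Tatdn1* (7.09), *mt-Tn* (5.79, adjusted p = 6.68e-06), *Ccdc36* (5.53, adjusted p = 0.0187) and *Hspb8* (3.25). It was more negative for *Dnah14* (-9.56, adjusted p = 6.33e-06), *Irf7* (-8.40, adjusted p = 0.0408), *Rpl23a-ps3* (-6.17, adjusted p = 0.0036), *Mt2* (-3.62), *Spred2* (-3.41), *Rab31* (-2.77), *Hbegf* (-2.71), *Col12a1* (-2.04) and *Vasn* (-2.04, adjusted p = 0.0458). The values of *Dnah14* and *Irf7* are fitted against IM24h *RiboTag* groups with 1 and 0 counts in all, and that of *Bc1* against an IM3h group with 4 counts, so their sizes depend on the prior count and are no bounds. Mouse line and time cannot be told apart in the *ME*.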

How the results depend on the processing

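No paired analysis was possible because the library names carry no replicate number. In the paper's methods, input RNA came from part of the lysate used for the pull-down. *ME* and *RiboTag* libraries of IM24h may therefore share mice, while the joint fit treats them as independent. The 133 higher and 128 lower genes became 639 and 524 by DESeq2, 553 and 497 by voom with quality weights, 268 and 308 with naïve libraries in the fit, 16 and 63 with library totals as the scale, and 10 and 33 with 3 reference genes. Without scaling 12 were higher, and without libraries 2 and 3 of IM24h 207 were lower. At the threshold of the study, 967 higher genes became 99 with reference genes, 203 with totals, 84 without scaling and 1518 without a filter, and 1005 lower genes became 2226, 1901 and 3155 with those scales, 1741 by voom and 1587 without libraries 2 and 3. Over all genes the log2 fold change had a median of -1.17 with reference genes, -0.83 with totals and -1.34 without scaling. Interaction counts of 68 more positive and 66 more negative became 423 and 443 by DESeq2, 138 and 312 without libraries 2 and 3, and 28 and 1607 without scaling. With library totals that leave out *AY036118*, the difference in summed markers was -7.20 CPM for interstitial cells of Cajal, 75.3 for endothelium (exact permutation test, p = 0.0286) and -89.8 for epithelium (exact permutation test, p = 0.0286). List medians relative to all genes moved to -0.70 for growth factors and 0.68 for small-subunit ribosomal proteins by voom, to 1.12 without libraries 2 and 3 and 1.09 with reference genes for fibroblasts, and to 2.53 without a filter for neutrophils.

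Leaving out 1 library at a time gave 22 to 253 higher and 21 to 250 lower genes, 754 to 1862 lower at the threshold of the study, 29 to 275 more positive and 12 to 517 more negative interactions, and a difference in *AY036118* of 32.2 to 44.6 percentage points. Relative list medians ranged from -0.13 to 0.53 for collagens, 0.28 to 0.87 for endothelium, -1.59 to -1.01 for glia, -1.50 to 0.21 for epithelium, -0.39 to 0.77 for fibroblasts, -2.01 to -0.88 for growth factors, -1.20 to 0.98 for mesothelium, -1.78 to -0.19 for metallothioneins and 1.25 to 3.33 for neutrophils. The sign turned for genes that were not called. *Atf3* went to -0.43 without libraries 2 and 3, -1.43, -0.87 and -1.49 with reference genes, totals and no scaling, -0.36 by voom, and -0.05 and -0.03 without library 3 or 4 of IM24h (up to 0.56 without library 1). *Il6* went to -0.81, -0.51 and -1.16 with those scales, to -0.14 and -0.26 without those libraries and to -0.22 without library 3 of IM3h (up to 1.10 without library 4). *Adrb1* went to -2.15 by voom, *Col6a3* to -0.08 without scaling and *S100b* to 0.06 without library 4 of IM3h. The cause of these shifts was not tested. With a median dispersion of 0.784, most 4-fold changes could not be called at this depth and n.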
